A study of Mus musculus with 4 samples.

Results

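The suppressor of cytokine signaling (SOCS) family was examined in mouse blood. It comprises Cish and Socs1 to Socs7, which were chosen by gene symbol. All 8 members are among the 23136 genes listed, and all 8 have values in each of the 4 blood libraries. The libraries come from C57BL/6 mice that the sample labels call adult and that were 12 months old. One group (Nar, 2 libraries) received 20 mg/kg naringenin, a flavonoid, through the tail vein over 30 days, and the control group (Ctrl, 2 libraries) received phosphate-buffered saline (PBS). Both groups share strain, age and tissue, and no genetic change is described for either. The libraries are numbered 1 and 3 in each group. Nothing in the labels says which animal each library came from, so the p-values below measure the spread between these libraries.

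SOCS proteins are feedback brakes on cytokine receptors. A cytokine activates JAK kinases at its receptor, the JAKs activate STAT transcription factors, and the STATs switch on SOCS genes, whose products then silence the same receptor. Each member has an SH2 domain, which binds phosphorylated tyrosines, and a SOCS box, which recruits a ubiquitin ligase built on elongins B and C and a cullin. Socs1 and Socs3 can also block JAK catalysis directly. In blood, Socs3 is best known for restraining the receptors of granulocyte colony-stimulating factor (G-CSF) and interleukin-6, Socs1 for restraining interferon-γ, and Cish and Socs2 for restraining receptors that signal through STAT5.

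Short sequences of the kind read by STATs and by interferon regulatory factors were looked for in the promoters, and 3 stretches are shown because they hold matches. RefSeq promoter windows (GRCm38.p6, 250 bases before and 50 bases after the annotated start) were at hand for 4 of the 8 members, Cish, Socs1, Socs3 and Socs4. The STAT-type palindrome TTCNNNGAA occurs in 8.3% of all 32851 such windows, and a pattern of interferon-response elements, GAAA followed by any 2 bases and GAAA again, occurs in 3.44% when searched on both strands. Capitals mark the matches, and each stretch is written 5′ to 3′ on the strand of the gene.
Cish: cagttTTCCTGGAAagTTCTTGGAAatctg
Socs3: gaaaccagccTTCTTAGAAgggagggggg
Socs1: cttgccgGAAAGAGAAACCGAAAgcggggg
The Cish stretch (chr9:107296654-107296683, plus strand) holds 2 copies of TTCNNNGAA, the first of which begins at the annotated start itself. The Socs3 stretch (chr11:117969502-117969530, minus strand) holds 1 copy, whose first base lies at -154 from the RefSeq start. The coding Socs3 transcript of GENCODE M21 starts downstream of this window, so the sequence next to that start was not searched. The Socs1 stretch (chr16:10785597-10785626, minus strand) holds 2 copies of the interferon-type pattern that overlap each other. Neither pattern occurred in the Socs4 window. These matches describe letters only, and no binding was measured.

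Expression is given as FPKM (fragments per kilobase of transcript, scaled to the number of mapped fragments), as deposited by the authors to 2 decimals. Summed FPKM ran from 1477724 to 1582821 per library, and haemoglobin genes made up 92.6% to 96.4% of it. Of the markers of neutrophils, monocytes, B cells, T cells, NK cells, platelets and red cells that had values, each was above 0 in all 4 libraries, except the NK cell gene Klre1, which was listed at 0 in Nar 3. The median log2 fold change of the 5339 genes tested was -1.07 (Nar minus Ctrl), and it was -0.06 once libraries were rescaled by median-of-ratios factors, which take the typical gene as unchanged.

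Socs3 was the dominant member of the family in control blood and the only one that passed the filter for testing, a mean of at least 0.5 FPKM. It was about 10 times lower in the Nar-treated mice. Ctrl 1 had 8.37 FPKM and Ctrl 3 had 9.15, against 0.9 for Nar 1 and 0.86 for Nar 3. Both control libraries were high, both Nar libraries were low, and replicates lay far closer to each other than the groups did. The means were 8.76 ± 0.552 FPKM (SD, n = 2) and 0.88 ± 0.0283 FPKM (SD, n = 2), so that the control mean was 9.95 times the Nar mean. On log2(FPKM + 0.1) the fold change of Socs3 (NCBI Gene 12702, chr11:117966079-117970047, minus strand, GRCm38) was -3.18 with a standard error of 0.394, and the adjusted p from limma was 0.00385 over all 5339 genes. Of these genes, 39.6% were called lower with Nar at an adjusted p under 0.05 and 0.187% were called higher, so the call alone does not set Socs3 apart. The size of the change placed it further out, since 1.18% of the tested genes had a lower log2 fold change.

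Relative to the median of all tested genes, the log2 fold change of Socs3 was -2.10. Median-of-ratios scaling gave -2.12 and a limma adjusted p of 0.074, which no longer passed, and 0.356% of all tested genes were then called lower. With haemoglobin genes taken out and the rest rescaled, Socs3 was called (log2 fold change -2.74, limma adjusted p = 0.00161) where 4.54% of genes were called lower. It was also called with the replicate number as a block (limma adjusted p = 0.00158), where 33.8% of genes were. The call was also lost when either control library was left out (adjusted p = 0.0826 without Ctrl 1 and 0.0871 without Ctrl 3, limma), and the fold changes were then -3.24 and -3.11. In both of these fits 0 of the 5339 genes passed, while 2682 and 2133 had an unadjusted limma p under 0.05. An exact two-sided permutation test of 2 libraries against 2 can give no p below 0.33.

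**Figure D1:**
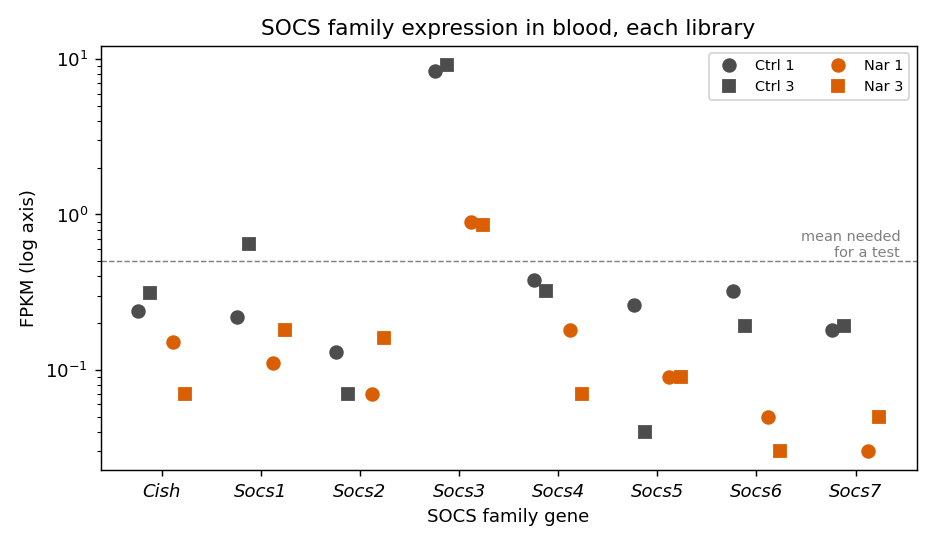
FPKM of the 8 SOCS family genes in each library on a log axis, with controls in grey and Nar in orange, circles for replicate 1 and squares for replicate 3. Control values of Socs3 are 8.37 and 9.15 and Nar values 0.9 and 0.86, while all other values lie at or below 0.65.

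The other 7 members were expressed at a low level, with means between 0.108 and 0.29 FPKM, and were below the filter. How many reads such values rest on was estimated from the table itself. In genes with 1 annotated transcript, low FPKM values multiplied by transcript length fell into steps, as they do when whole fragments are counted. The steps were 0.0406 and 0.0439 FPKM × kb for Ctrl 1 and Ctrl 3 and 0.0422 and 0.0426 for Nar 1 and Nar 3. Between 81% and 86.6% of the low values lay within 0.25 of a whole step. An even spread would give 50% at a step fixed beforehand. Each step, and a length offset (100 bases in Ctrl 1, 50 in the others), was chosen to fit these same values, so this share is no test. The steps correspond to between 22.8 and 24.7 times 1000000 fragments in each library, and the ranges of the groups overlap. With GENCODE transcript lengths, Socs3 then rests on about 506 and 522 fragments in controls and about 53 and 51 with Nar. The transcript models behind the deposited values are not known, and these fragment numbers are approximate.

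**Figure D2:**
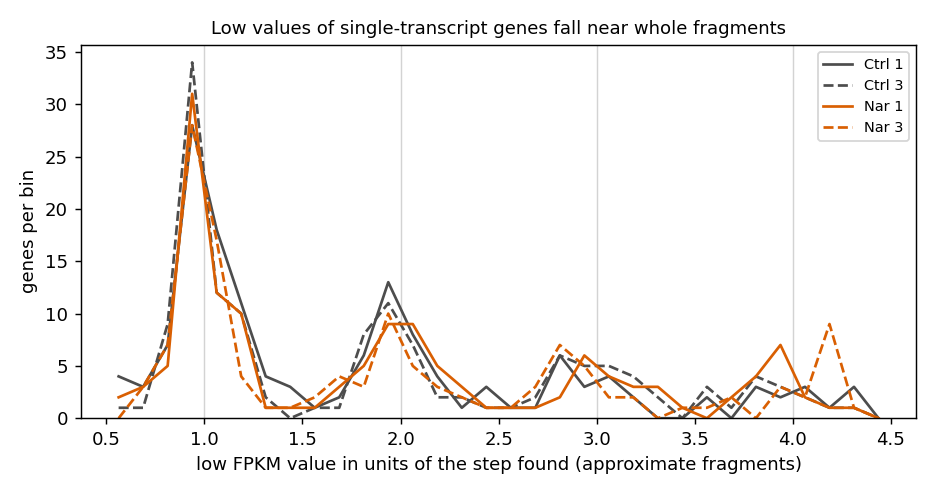
Number of single-transcript genes (y) by their low FPKM value expressed in units of the step found in that library (x), 1 line per library. Peaks near 1, 2 and 3 in all 4 libraries mark the steps, which were chosen to fit these values and from which the number of fragments was estimated.

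Cish and Socs2, the members most closely tied to STAT5, are described first. Cish, the founding member (NCBI Gene 12700), had 0.24 and 0.31 FPKM in the controls and 0.15 (Nar 1) and 0.07 (Nar 3) after treatment. The groups did not overlap, with a log2 fold change of -0.86, beside a median of -0.68 over the genes at the level of the low members. These values amount to about 16 to 20 fragments in controls and about 4 to 10 with Nar, and in GENCODE Cish overlaps genes on the opposite strand, from which reads cannot be told apart without strand information. Socs2, which limits growth hormone signaling (NCBI Gene 216233), had 0.13 and 0.07 FPKM in Ctrl 1 and Ctrl 3, and 0.07 and 0.16 in Nar 1 and Nar 3. Its groups overlapped, its log2 fold change was 0.09, and no library held more than about 8 fragments. No difference in Socs2 was detected.

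Socs1, the brake on interferon-γ signaling (NCBI Gene 12703), had 0.22 and 0.65 FPKM in Ctrl 1 and Ctrl 3, and 0.11 and 0.18 in Nar 1 and Nar 3. Both Nar libraries were lower than both controls, but the control libraries differed by more than the gap between Ctrl 1 and Nar 3. The log2 fold change of Socs1 was -1.01, and it was -1.63 without Ctrl 1 and -0.40 without Ctrl 3. Interferon-γ itself (Ifng) was listed at 0.25, 0.62, 0.04 and 0.07 FPKM in Ctrl 1, Ctrl 3, Nar 1 and Nar 3. Ifng was below the filter and is named after its values were seen, and a link to Socs1 was not tested.

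Socs4 and Socs5, which are linked to the epidermal growth factor receptor, come next. Socs4 (NCBI Gene 67296) had 0.38 and 0.32 FPKM in Ctrl 1 and Ctrl 3 and 0.18 and 0.07 in Nar 1 and Nar 3, with no overlap and a log2 fold change of -1.04, which was -0.68 without Nar 3. In Socs5 (NCBI Gene 56468) the values were 0.26, 0.04, 0.09 and 0.09 FPKM in the same order, so that both Nar libraries lay between the controls. The log2 fold change of Socs5 was -0.24, and without Ctrl 1 it was 0.44. Egfr, their receptor, was at or below 0.02 FPKM in all 4 libraries.

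Socs6 and Socs7, which interact with insulin receptor signaling, had the lowest values with Nar. Socs6 (NCBI Gene 54607) had 0.32 FPKM in Ctrl 1 and 0.19 in Ctrl 3, against 0.05 in Nar 1 and 0.03 in Nar 3. Its control mean was 6.38 times its Nar mean, the second largest ratio of the family after Socs3. For Socs7 (NCBI Gene 192157) the values were 0.18 and 0.19 FPKM in controls and 0.03 and 0.05 with Nar, a ratio of 4.62. On the log2(FPKM + 0.1) scale, which understates the change of such low values, the fold changes were -1.32 for Socs6 and -1.03 for Socs7. Estimated fragments in the Nar libraries were about 2 to 7 for Socs6 and about 5 to 8 for Socs7. In GENCODE Socs6 overlaps processed pseudogenes on both strands, and whether reads from these enter its values was not tested.

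In 6 of the 8 members each Nar value was below each control value, and the groups overlapped in Socs2 and Socs5. Among the 2837 genes whose mean FPKM lay in the range of the 7 low members, 61.1% had both Nar libraries below both controls, and of the 7 it was 5. For the tested genes the share was 78.3%, and for all genes above 0 in any library 52.7%. A log2 fold change below 0 was found in 6 of the 7 and in 90.3% of the genes of their range. The median log2 fold change of the 7 low members was -1.01, beside -0.68 for the genes of their range. These medians became -0.25 and -0.01 under median-of-ratios scaling. Under that scaling Cish stood at -0.18, Socs1 at -0.25, Socs4 at -0.32, Socs7 at -0.51 and Socs6 at -0.77. Socs5 (0.31) and Socs2 (0.66) were then above 0. When the filter was lowered to a mean of 0.1 FPKM, an alternative added after the values were seen, all 8 members could be tested and 17.8% of 10182 genes were called lower. Socs3 passed (limma adjusted p = 0.0205), and none of the other 7 did. The nearest to the threshold was Socs6 with a limma adjusted p of 0.0566, followed by Socs4 with 0.0804, Socs7 with 0.0843, Cish with 0.113 and Socs1 with 0.128. At an unadjusted limma p under 0.05, Socs6 (0.0126), Socs4 (0.0292) and Socs7 (0.0321) would count as lower beside Socs3, and so would 46.7% of all genes in that fit. Without a filter 0 of 16382 genes passed in limma, and 4978 (30.4%) had an unadjusted p under 0.05.

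**Figure D3:**
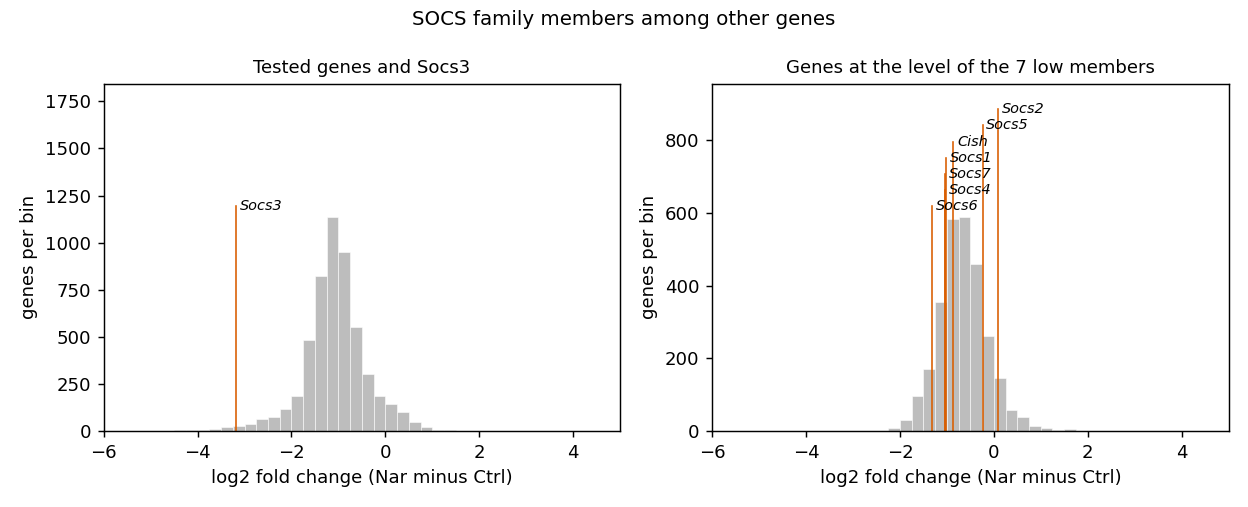
Histograms of the log2 fold change (x, Nar minus Ctrl, on log2(FPKM + 0.1)) with the number of genes per bin (y), for the 5339 tested genes on the left and for 2837 genes at the level of the 7 low members on the right. Orange lines mark Socs3 at -3.18, in the lower tail of the tested genes, and the 7 low members between -1.32 and 0.09, inside the spread of genes at their level.

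Within a library, the ratio of 2 genes does not depend on how libraries are scaled. Socs3 made up 82.9% and 83.8% of the summed FPKM of the family in controls and 57% in both Nar libraries. The other 7 members summed to 1.73 and 1.77 FPKM in controls and to 0.68 and 0.65 in Nar 1 and Nar 3. Socs3 was thus 4.84 and 5.17 times that sum in controls and 1.32 times in both Nar libraries. Socs3 had a higher FPKM than 94.5% to 95.4% of genes with values in the control libraries, and than 85.1% to 86.5% in the Nar libraries. It was the highest member in every library. The next highest was Socs4 in both libraries numbered 1 and Socs1 in both numbered 3, and the order below Socs3 was thus not the same in replicates.

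JAK and STAT genes, which act upstream of SOCS genes and are held back by SOCS proteins, were in part lower in blood of Nar-treated mice on the FPKM scale. Of the 11, 10 could be tested and 7 had a limma adjusted p under 0.05, all lower with Nar. Their median log2 fold change was -1.44, against -1.07 for all tested genes, of which 39.6% were called lower. Stat2, a factor of interferon signaling, fell most, with 1.5 and 1.47 FPKM in controls and 0.32 and 0.18 with Nar (log2 fold change -2.21, limma adjusted p = 0.00774). Next was Stat3, the factor that induces Socs3, with 4.38 and 4.33 FPKM in controls and 1.25 and 1.13 with Nar (log2 fold change -1.79, limma adjusted p = 0.0147). Of the 7 genes called, 2 (Stat2 and Tyk2) reached the filter only through the controls, with Nar means of 0.25 and 0.33 FPKM. Stat4 and Jak1 had the highest values, -0.82 (limma adjusted p = 0.0855) and -1.01 (limma adjusted p = 0.133), and did not pass. Under median-of-ratios scaling they stood above 0, at 0.15 and 0.09. Under median-of-ratios scaling the list had a median of -0.39, and 0 of its 10 tested genes passed in limma (1 was lower at an unadjusted p under 0.05). With haemoglobin genes removed 0 passed as well (3 at an unadjusted p under 0.05), and leaving out any 1 library left at most 1.

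Among cytokine receptors, the largest fall was that of the G-CSF receptor, which Socs3 restrains. Csf3r was at 37.07 FPKM in Ctrl 1 and 22.88 in Ctrl 3, and at 2.49 in Nar 1 and 3.2 in Nar 3 (log2 fold change -3.32, limma adjusted p = 0.0051). Csf2ra, the α chain of the receptor for granulocyte-macrophage colony-stimulating factor, followed with -2.82 (limma adjusted p = 0.00586). At the other end stood Il7r, a lymphocyte receptor, and Ifnar2, part of the type I interferon receptor, at -0.18 (limma adjusted p = 0.765) and -0.54 (limma adjusted p = 0.358), which did not pass. In all, 11 of 18 tested receptor genes were called lower, beside 39.6% of all tested genes, with a median of -1.42, and 2 of the 11 (Csf2rb2 and Ifnar1) reached the filter only through the controls. Under median-of-ratios scaling 0 were called in limma, 5 were lower at an unadjusted p under 0.05, and their median was -0.45. Il6st, the gp130 chain to which Socs3 binds, was below the filter at 0.45 and 0.33 FPKM in controls and 0.15 and 0.19 with Nar. None of the 7 receptor tyrosine kinase and insulin pathway genes reached the filter.

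Most cytokines that induce SOCS genes were below the filter in blood. Of 22 such ligands 17 had values, and 2 could be tested. Both reached the filter only through their control values, with Nar means of 0.27 and 0.325 FPKM, so a fall was built into which ligands were tested, and their calls are given as values beside the 39.6% of all tested genes called lower. Osm (oncostatin M), which signals through gp130 and STAT3, was at 4.49 and 2.55 FPKM in controls and 0.18 and 0.36 with Nar (log2 fold change -3.28, limma adjusted p = 0.00427). Il15, which signals through STAT5, had a log2 fold change of -1.48 (limma adjusted p = 0.0256). Under median-of-ratios scaling, where 0.356% of all tested genes were called lower, 0 of these 2 passed in limma, 1 was lower at an unadjusted p under 0.05, and their values were -2.32 and -0.54. Il6 was listed at 0.23 FPKM in Ctrl 1 and at 0 in the other 3 libraries, and Il10 at 0.07 in Ctrl 1 and 0 in the others.

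STAT target genes outside the SOCS family ranged from large falls to no call. Of 11 tested, 4 were called lower (1 of them, Bcl6, reached the filter only through the controls), a share near the 39.6% over all tested genes, with a median log2 fold change of -0.98. Under median-of-ratios scaling 0 passed in limma (2 were lower at an unadjusted p under 0.05), and the median was -0.03. Irf1, an activator of interferon responses, fell from 6.5 and 8.85 FPKM to 0.96 and 0.6 (log2 fold change -3.16, limma adjusted p = 0.00427), close to the value of Socs3. Junb, an AP-1 factor, fell from 28.7 and 20.55 FPKM to 2.15 and 3.24 (log2 fold change -3.15, limma adjusted p = 0.00553). By contrast Bcl2l1, a survival gene that is abundant in maturing red cells, was at 24.65 and 55.0 FPKM in controls and 49.4 and 32.52 with Nar, and Myc was at 0.79 and 0.55 against 0.57 and 0.6. Neither passed (limma adjusted p = 0.858 and 0.73).

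The ubiquitin ligase that the SOCS box recruits was measured in 7 tested genes. Of these 1 was called lower, beside 39.6% of all tested genes, and the median log2 fold change was -0.27, above the median of all tested genes. The gene called was Rbx1, the RING subunit (log2 fold change -1.15, limma adjusted p = 0.032), and the lowest value was that of the modifier Nedd8 at -1.19 (limma adjusted p = 0.0656). Rnf7, the RING subunit used with Cul5, and Ube2f, the enzyme that loads Nedd8 onto Cul5, were the highest, at 0.44 and 0.46, and did not pass (limma adjusted p = 0.326 and 0.463). The cullin itself, Cul5, was below the filter at 0.23 and 0.19 FPKM in controls and 0.14 and 0.11 with Nar. Under median-of-ratios scaling the ligase genes had a median of 0.82, so the sign of the median depends on the scaling. Rbx1 then stood at -0.15, Rnf7 at 1.38 and Ube2f at 1.56, and 0 of the 7 passed in limma, while 2 were higher at an unadjusted p under 0.05.

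Other proteins with a SOCS box were mostly low in blood, with 4 of 18 tested. Of the 4, Wsb1 alone was called lower (log2 fold change -1.35, limma adjusted p = 0.0389), beside 39.6% of all tested genes. Wsb2, Spsb3 and Asb1 had values of -0.86, -0.62 and -0.26 that did not pass (limma adjusted p = 0.0656, 0.193 and 0.683). The median of this list was -0.74, and 0.29 under median-of-ratios scaling, where Wsb1 stood at -0.35 and 0 of the 4 passed in limma. Inhibitors of JAK and STAT signaling outside the SOCS family had a median of -1.22, and 3 of 10 tested were called lower, beside 39.6% of all tested genes. Under median-of-ratios scaling 0 passed in limma (1 was lower at an unadjusted p under 0.05), and the median was -0.25. Pias1, a SUMO ligase that reached the filter only through the controls (Nar mean 0.2 FPKM), fell most (log2 fold change -2.21, limma adjusted p = 0.00878), followed by the ubiquitin ligase Cbl (-1.50, limma adjusted p = 0.0232). Usp18, a brake on the type I interferon receptor, and Sh2b3, a brake on thrombopoietin and erythropoietin signaling, had the highest values, -0.27 and -0.89, and did not pass (limma adjusted p = 0.606 and 0.215).

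**Figure D4:**
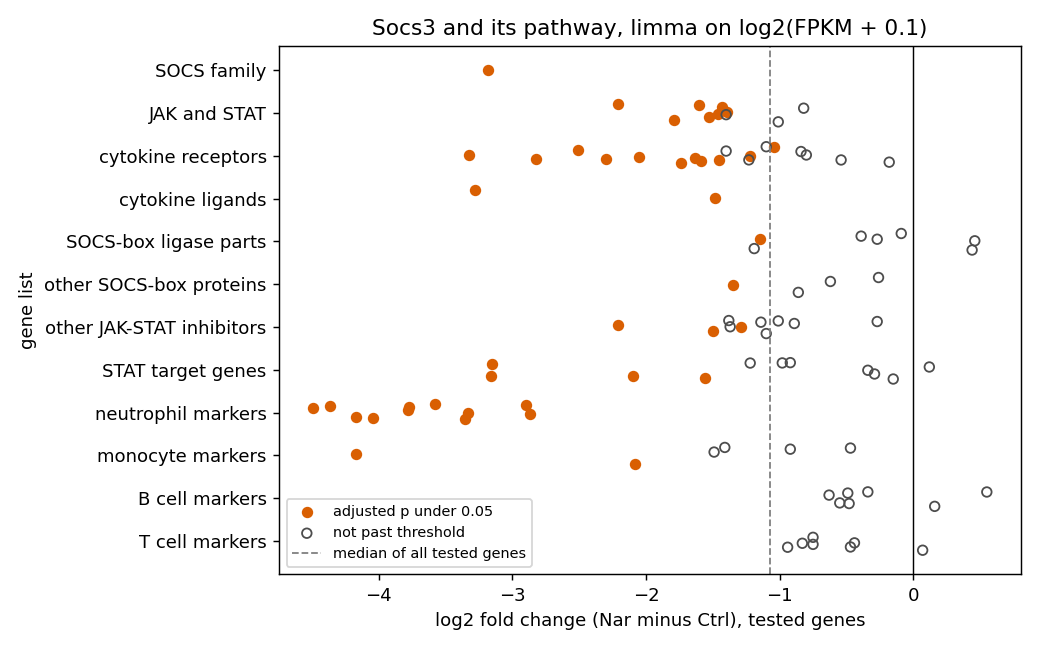
Log2 fold change (x) of each tested gene in the pathway and marker lists (y), with genes past a limma adjusted p of 0.05 filled in orange, others open, and the median of all tested genes, -1.07, as a dashed line. Socs3 lies at -3.18, among the neutrophil markers and beyond every tested JAK and STAT gene.

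Among markers of blood cell types, those of neutrophils were lower with Nar. All 11 neutrophil markers were called lower, beside 39.6% of all tested genes, with a median log2 fold change of -3.77. Of the 11, 2 (Camp and Ltf) reached the filter only through the controls, with Nar means of 0.45 and 0.485 FPKM. Under median-of-ratios scaling 3 of the 11 were called lower, Ngp and the same Camp and Ltf, and the median was -2.66. In that fit 0.356% of all tested genes were called lower. The summed FPKM of the 11 markers was 1709 and 1419 in controls and 103 and 162 with Nar. Of the defining neutrophil genes S100a8, S100a9 and Ly6g none was at 0, and the lowest value was 0.63 FPKM, for Ly6g in Nar 3. For monocytes 2 of 6 tested markers were called lower, with a median of -1.45 and sums of 63.6 and 84.1 FPKM against 26.6 and 9.68. No marker of B cells (7 tested), T cells (7 tested), platelets (8 tested) or red cells (10 tested) was called in either direction, with medians of -0.48, -0.75, -1.13 and 0.35. The platelet markers summed to 751 FPKM in Ctrl 1 and 2502 in Ctrl 3, against 680 and 491 with Nar, so that Ctrl 3 stood apart from the other 3 libraries. At an unadjusted limma p under 0.05, 2 T cell markers and 1 platelet marker were lower, and 0 markers of B cells or red cells differed. Of 5 NK markers 1 was called lower, with a median of -1.18. In the separate haemoglobin list Hba-a1 and Hba-a2, which encode the α chain, were called higher (log2 fold changes 0.28 and 0.21, limma adjusted p = 0.0348 for both), and 4 haemoglobin genes were called higher under median-of-ratios scaling. That scaling gave medians of 0.54 for B cells, 0.23 for T cells, -0.02 for platelets, 1.46 for red cells, -0.27 for NK cells and -0.37 for monocytes, and no marker of these types passed in limma. At an unadjusted p under 0.05, 9 of 10 red cell markers, 2 B cell markers and 1 T cell marker were then higher, and 1 monocyte marker was lower. In bulk blood, fewer cells of a type and less RNA per cell cannot be told apart.

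The ratio of Socs3 to single neutrophil markers was below both controls in both Nar libraries for 0 of the 11. It overlapped between the groups for 6 of them and was higher in both Nar libraries for 5, Camp, Lcn2, Ltf, Mmp8 and Ngp, of which Lcn2 differed by less than the printed digits (0.122 in both Ctrl 3 and Nar 3). For Ngp, a granule protein gene, it was 0.101 and 0.124 in controls and 0.318 and 0.213 with Nar. Relative to Csf3r, Socs3 stood at 0.226 and 0.4 in Ctrl 1 and Ctrl 3 and at 0.361 and 0.269 in Nar 1 and Nar 3, so the groups overlapped and the difference of the mean log2 ratios was 0.05. Likewise, the ratio of Socs3 to the summed neutrophil markers overlapped between groups, at 0.0049, 0.00645, 0.00872 and 0.00531 in the same order, with a difference of 0.28. Against Stat3, in contrast, Socs3 stood at 1.91 and 2.11 in controls and at 0.72 and 0.761 with Nar, a difference of -1.44 in log2 ratio. It was also lower in both Nar libraries relative to Il6st (-2.12), Jak1 (-2.29), the phosphatase gene Ptpn6 (-1.90), Il6ra (-1.76) and the summed monocyte markers (-1.13). For each of these ratios the smallest exact two-sided permutation p is 0.33. Such ratios restate the fold changes of Socs3 and of each denominator. As 1.18% of the tested genes had a lower log2 fold change than Socs3, a lower mean ratio to most genes follows from its rank. The part of the neutrophil signal in the change of Socs3 was not tested.

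**Figure D5:**
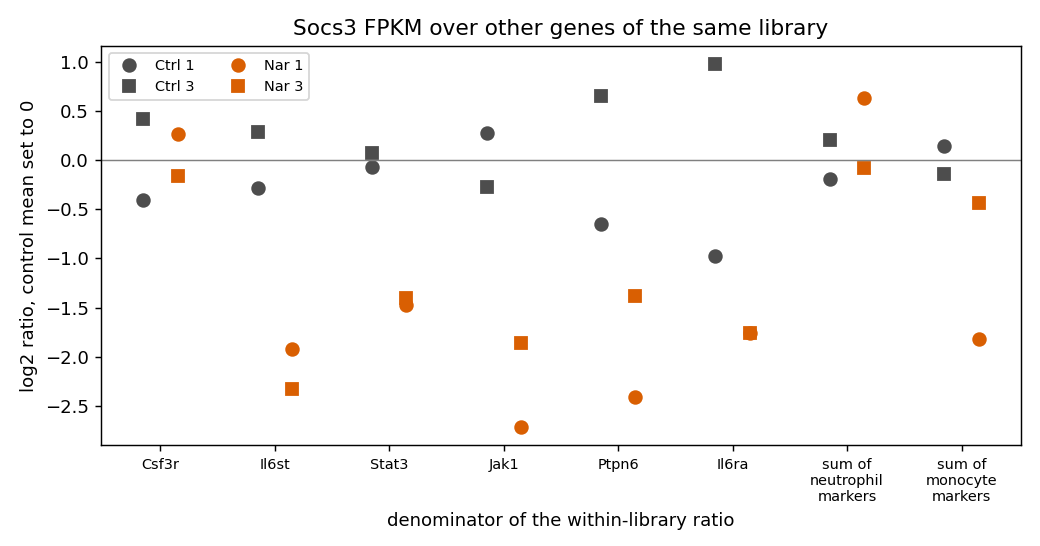
Log2 ratio of Socs3 FPKM to another gene or marker sum in the same library (x names the denominator), with the mean of the 2 controls set to 0 and 1 point per library. Nar points overlap the controls for Csf3r and the neutrophil sum and lie below both controls for the other 6 denominators.

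The tested genes outside these lists whose 4 values most resembled those of Socs3 were Fosl2, an AP-1 transcription factor, and Bst1, a surface ADP-ribosyl cyclase of myeloid cells. Likeness was the root mean square difference of the centred log2(FPKM + 0.1) values over 4 libraries, which was 0.065 for Fosl2 and 0.131 for Bst1. Fosl2 stood at 2.2 and 2.5 FPKM in controls and 0.17 and 0.19 with Nar, and Bst1 at 3.49 and 3.03 against 0.26 and 0.29. Both reached the filter only through the controls, so a fall was built into their being searched. At such low Nar values the likeness also depends on the 0.1 added before the log. A link between these genes and Socs3 was not tested.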

How the data were processed

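Blood mRNA of 2 Nar and 2 control libraries was sequenced after oligo(dT) purification. The authors deposited 1 FPKM value per gene and library. The submitters' processing notes name TopHat2, Cufflinks and GRCm38, while the methods name bowtie-2 against reference gene sequences. Versions and annotation are not given in the sources used here. Of 23136 genes, 5313 were blank throughout and were left out. Each column was matched to its library by title.

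Values were compared as log2(FPKM + 0.1) with limma 3.58.1 in R 4.3.3 (eBayes with trend, Benjamini-Hochberg) over the 5339 genes averaging 0.5 FPKM or more. Tested on simulated data of 5339 genes, the fit recovered 197 of 200 changed genes, called 13 unchanged ones, and called 0 when none was changed. In the blood data 2113 genes were called lower and 10 higher. How the fit performs with so many genes lower in 1 group was not tested. DEGseq, which the methods name, needs read numbers. Members and gene lists were chosen with earlier results of these data known, and so were the denominators of the ratios. Named genes were all members, up to 2 genes at either end of each pathway list, and the 2 closest profiles. Genes named besides these were chosen after their values were seen. Positions and transcript lengths came from GENCODE M21, promoters from RefSeq. Depth was estimated from steps in low FPKM values, and such numbers cover no error of the transcript models. Alternatives changed the pseudocount, filter, scaling, trend, replicate block or libraries. Python 3.11.15, pandas 2.3.3 and matplotlib 3.10.9 were used.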

Additional observations from a re-analysis of the deposited data

How the results depend on the processing

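The fold change of Socs3 was below 0 under all 15 alternatives, between -3.30 and -2.12, and passed in 10 of them (limma adjusted p from 3.02e-05 to 0.122). Socs3, the 1 member called, was not called (0 members) without the filter, with median-of-ratios scaling, with that scaling and a mean of at least 0.1 FPKM, or without either control library. Across left-out libraries the count of members called ran from 0 to 1. The median log2 fold change of tested members, -3.18, was -2.38 with a pseudocount of 1, -3.30 with 0.01, -2.74 after removal of haemoglobin genes and -2.12 with median-of-ratios scaling. Over all 8 members it was -1.02 without the filter or with a mean of at least 0.1 FPKM, and -0.29 with the latter and median-of-ratios scaling. JAK and STAT genes called lower, 7 in the fit reported, were 0 without the filter (0 of 16382 genes called there), with a mean of at least 5 FPKM (1 gene left to test), after removal of haemoglobin genes, with median-of-ratios scaling, and with that scaling and a mean of at least 0.1 FPKM, and 0 to 1 with a library left out, where an arm of 1 library is assumed to vary like the other. At a mean of at least 5 FPKM no member could be tested. The cause of these changes was not tested. For the other 7 members, 20 of 63 values moved by more than the spread between replicates, and the sign changed in Socs2 (0.09) to -0.13 without Ctrl 3 and -0.22 without Nar 3, and in Socs5 (-0.24) to 0.28 with haemoglobin removed, 0.31 with median-of-ratios scaling and 0.44 without Ctrl 1.

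Same-numbered libraries share only a number. Their deviations correlated at -0.153 over 5339 genes, and with the replicate number as a block Socs3 had a limma adjusted p of 0.00158 and a log2 fold change of -3.18, 1 member was called, and 1802 genes were called lower in place of 2113. With the numbers crossed, chosen after seeing the data, 3211 were called lower, 1 of them a member. Over all genes, the 2113 lower calls (10 higher) became 1812 with a mean of at least 0.1 FPKM, 242 (14 higher) after removal of haemoglobin genes, 116 with a mean of at least 5 FPKM, 19 (6 higher) with median-of-ratios scaling, 0 without the filter, and 0 to 254 with a library left out. Rounding to 2 decimals and low numbers of fragments limit the members, with at most about 63 (Socs4 in Ctrl 1) behind any value of the 7 low ones and about 51 and 53 behind the Nar values of Socs3.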
